A study of Mus musculus with 2 samples.

Results

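In a single-cell library of Balb/c mouse brain titled positive, 477 of 10842 cell barcodes (4.40%, exact binomial 95% interval 4.02 to 4.80%) met a marker rule for monocytes carrying Ly6c2 or Ccr2. The rule was written on counts of unique molecular identifiers (UMIs, 1 per captured RNA molecule). It asked for at least 15 UMIs of the myeloid genes Tyrobp, Fcer1g and Ctss together and at least 5 of Ly6c2, Ccr2 and Plac8 together. It allowed at most 1 UMI of Csf3r, 5 of Epcam, Krt8 and Krt18, 3 of P2ry12, Tmem119, Siglech and Cx3cr1, 4 of Arg1 and 2 of Cxcl9, and fewer than 5 of Ccl8, Ms4a7 and Apoc1. These measured values chose the cells, so high Ly6c2, Ccr2 and Plac8 and low levels of the capped genes describe the choice and are no result. The other library of the series, titled control, held 98 such cells among 10417 barcodes (0.941%), and the series held 21259 barcodes in all. Both libraries came from brain tissue of Balb/c mice in a model of breast cancer brain metastasis, carry the molecular typing TNBC (triple-negative breast cancer) and were made with the Singleron GEXSCOPE kit, which captures cells on a microfluidic chip. Against the titles, the treatment label gives the titled control library brain metastasis from the mouse mammary tumour line 4T1 and the titled positive library none, while the gate for carcinoma cells held 5545 barcodes of the titled positive library and 0 of the titled control library. The titles alone serve as group names here, and nothing is said of brains with or without metastasis. Age, sex and the number of animals pooled were not given in the labels, and a single library per title allowed no test. All intervals are 95%, exact, and cover counting error only.

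Classical monocytes are made in bone marrow, leave it through the chemokine receptor CCR2 and circulate with high surface Ly6C, the protein family that includes the product of Ly6c2. In inflamed tissue they can become macrophages, losing Ly6C and gaining complement C1q, lysosomal and scavenging genes. A second circulating kind, the non-classical monocyte, has low Ly6C and CCR2 and expresses Treml4, Ace and Adgre4. Healthy brain parenchyma holds microglia, which arise from embryonic precursors, and few blood monocytes, while the meninges, the choroid plexus and tumours of the brain can hold monocyte-derived cells.

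Ly6c2 lies on chromosome 15 (GRCm38, 75108158 to 75111970, minus strand) in a cluster of related genes with Ly6e, Ly6i, Ly6a and Ly6g. Its nearest relative Ly6c1 lies at 75044018 to 75048830 on the same strand. Because both were high in the same cells, the sequences around their starts are shown, as windows of 300 bases from before the start into the gene, from RefSeq on GRCm38.p6, read 5′ to 3′ on the minus strand (chr15:75111922-75112221 for Ly6c2 and chr15:75048788-75049087 for Ly6c1). Capitals mark the letters GAGGAAGT, a match to the binding motif of PU.1, the myeloid transcription factor encoded by Spi1.
Ly6c2: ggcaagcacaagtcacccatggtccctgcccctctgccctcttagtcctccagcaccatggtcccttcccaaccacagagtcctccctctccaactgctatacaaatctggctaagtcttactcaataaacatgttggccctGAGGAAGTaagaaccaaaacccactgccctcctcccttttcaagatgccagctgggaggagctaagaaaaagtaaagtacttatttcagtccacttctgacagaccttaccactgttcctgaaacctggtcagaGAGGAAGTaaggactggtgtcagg
Ly6c1: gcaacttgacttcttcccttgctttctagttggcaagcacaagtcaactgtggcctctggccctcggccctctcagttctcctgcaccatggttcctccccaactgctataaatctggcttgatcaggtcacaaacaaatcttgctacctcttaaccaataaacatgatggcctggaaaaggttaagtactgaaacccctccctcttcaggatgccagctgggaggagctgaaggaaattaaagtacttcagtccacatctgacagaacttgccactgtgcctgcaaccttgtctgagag
The Ly6c2 window holds GAGGAAGT at -108 and at 27 from the start, both read along the gene. The Ly6c1 window printed holds none, while the window of a second annotated start of Ly6c1 (chr15:75048614-75048913) holds 1 match at -127. Of 27025 promoter windows of the same length, 887 (3.28%) hold GAGGAAGT on either strand. The interferon-gamma element TTCNNNGAA (in 8.47% of windows) and the core of the type I interferon element ISRE (in 3.49%) were in none of the windows of either gene. A match describes letters only and shows no binding. The 2 promoter windows aligned with 214 identical bases of 286 (74.8%), but the transcripts with 802 of 822 (97.6%) and their last 300 bases with 287 of 293 (98.0%). Counts of Ly6c2 and Ly6c1 are therefore uncertain, since reads from one can be given to the other.

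The 477 cells held a median of 4166 UMIs (3160 to 16612) and 1635 genes. The deposited barcodes began at 3160 UMIs in the titled positive library and at 2270 in the titled control library. The 477 cells made up 24.9% of the 1914 cells passing the myeloid part of the rule, and the gates they were compared with were 864 Arg1-high macrophages, 242 Cxcl9-expressing macrophages and 57 Ccl8-expressing macrophages (median 5426, 4857 and 4707 UMIs). The libraries shared 149 barcode sequences, 6 of them among the 477 cells. Scrublet called 9 of the 477 cells doublets. In the carcinoma gate (median 10722 UMIs), whose cells should lack monocyte genes, a Chil3 UMI was found in 31.5% of cells and, thinned to 2000 UMIs each, in 6.55%. Ly6c2 was found there in 29.9% and, thinned, in 7.25%, part of which may be Ly6c1 reads.

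The cells entered the gate by different genes. Ly6c2 itself reached 5 UMIs in 302 cells (63.3%), stood at 1 to 4 in 113 and at 0 in 62. Plac8, a gene of unsettled function that is high in monocytes, reached 5 UMIs in 343 cells and Ccr2 in 98. All of the 3 genes had a UMI in 303 cells. Ly6c2 and Ccr2 were both at 0 in 35 cells (7.34%), which Plac8 alone admitted, and in 51 cells no single gene reached 5 UMIs. At the edge of the rule stood 27 cells with exactly 5 UMIs of the 3 genes, and 30 otherwise qualifying cells had 4. Chil3 was at 1026 CPM (summed UMI counts scaled to a common total for each group of cells) just inside and 844 CPM just outside, F10 at 189 and 179 CPM, C1qa at 1822 and 1817 CPM, and Ly6c1 at 1173 and 551 CPM.

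Within the gate 3 small sets stood apart by genes of other cell types, and the cuts that separate them were set after these values had been seen. A set of 26 cells held at least 20 UMIs of the neutrophil granule genes Ngp, Camp and Ltf and of Retnlg. No cell lay between 20 and 49 of these UMIs, 2 lay at 10 to 19, and 24 of the 26 held 100 or more. Their S100a8 and S100a9, which encode the subunits of calprotectin, summed to 679 to 4350 UMIs per cell (median 1845), against 0 to 376 (median 5) in the remaining cells. S100a8 stood at 184373 CPM in the 26 cells, Ngp at 31457 CPM and Camp, the cathelicidin gene, at 21051 CPM. Ngp, Camp, Ltf and Retnlg, which chose these cells, are among the 11 neutrophil markers, so their levels and the sums partly describe the choice. The 11 markers summed to 356670 CPM in these cells, against 3834 CPM in the remaining members. They summed to 2687, 2537 and 1400.2 CPM in the Arg1-high, Cxcl9-expressing and Ccl8-expressing macrophages. Only 5 of the 26 held 5 or more Ly6c2 UMIs. The titled control library held 6 such cells among its 98, with S100a8 at 190595 CPM.

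A second set of 12 cells held at least 10 UMIs of cytotoxic genes. Gzma and Gzmb, granule proteases of natural killer (NK) and cytotoxic T cells, stood there at 13216 and 2231 CPM, the perforin gene Prf1 at 1179.5 CPM and the NK receptor gene Ncr1 at 384 CPM, while the T cell gene Cd3e had 1 UMI (14.2 CPM). The third set, also of 12 cells, held at least 50 UMIs of oligodendrocyte markers. The myelin gene Mbp stood there at 2618 CPM, and 6 of these 12 cells were among the doublet calls. Gzma, Gzmb, Prf1, Ncr1 and Mbp were among the genes of these cuts, so their levels describe the choice. The other 427 cells (89.5%) are called the remaining members below. They held a median of 4002 UMIs, and 2 were doublet calls. In them the defining NK genes Ncr1, Klrb1c and Eomes were at 0, after a cut that had used these genes. The 6 oligodendrocyte markers summed to 456 CPM in the remaining members, against 754, 1285 and 426 CPM in the 3 macrophage gates in the order above. The 3 cuts were made on the members only. The same cuts took 1 granule-rich, 4 cytotoxic and 10 oligodendrocyte-rich cells from the Arg1-high gate, leaving 849, and left 237 and 56 cells in the other gates. With them the oligodendrocyte markers summed to 422, 470 and 426 CPM in those gates and the neutrophil markers to 1983, 2494 and 1415 CPM. The 6 carcinoma markers summed to 379 CPM in the remaining members, and to 319, 358 and 285 CPM in those gates.

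**Figure D1:**
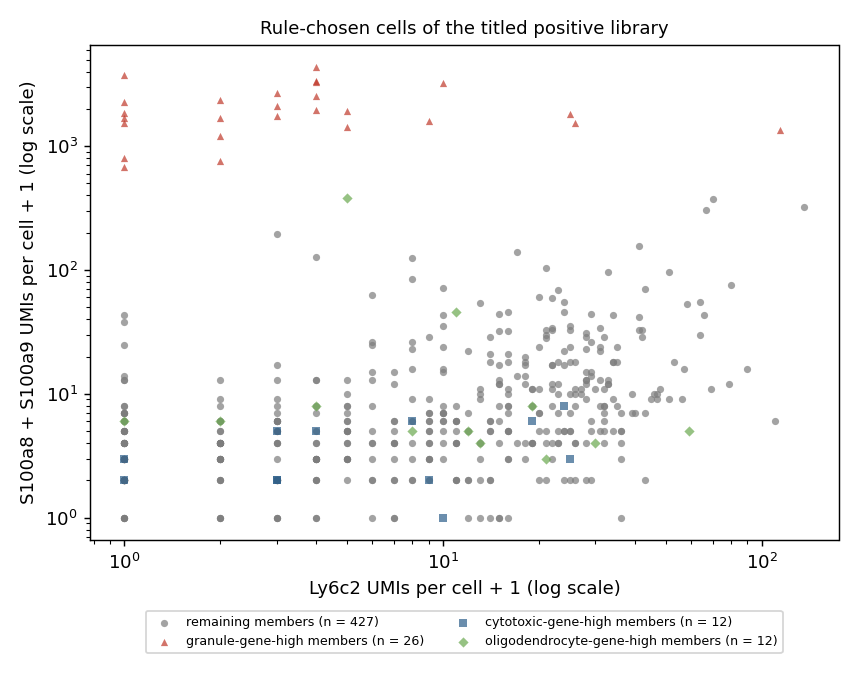
Each point is 1 of the 477 cells of the titled positive library, by its Ly6c2 UMIs plus 1 (x axis, log scale) and its S100a8 and S100a9 UMIs plus 1 (y axis, log scale). The 26 cells rich in neutrophil granule genes lie at 679 or more S100a8 and S100a9 UMIs, while the 427 remaining members reach 376.

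Levels of markers that the rule did not use are given here. Chil3 and F10 are markers of the label itself, which was chosen with earlier results of these data known. Their levels therefore describe the label and are no independent check of it. Chil3, which encodes a chitinase-like protein of mouse monocytes and macrophages, stood at 3040.4 CPM (2963 to 3119) in the remaining members, against 1776 CPM in Arg1-high, 1091 CPM in Cxcl9-expressing and 228 CPM in Ccl8-expressing macrophages. The log2 ratios were 0.78 (0.73 to 0.82), 1.48 (1.40 to 1.56) and 3.72 (3.39 to 4.10). F10, which encodes coagulation factor X, stood at 377 CPM (350 to 405) in the remaining members and at 309, 184 and 63.8 CPM in the same gates. Hp, the haptoglobin gene, stood at 523 CPM, against 387, 306 and 185 CPM. The remaining members were the highest of the 4 groups for each of these genes.

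Other genes of the classical monocyte list did not follow. Vcan, the versican gene, was nearly absent at 13.9 CPM (9.19 to 20.3), with a UMI in 3.28% of cells. Fn1, the fibronectin gene, stood at 1033 CPM in the remaining members and at 1100.2 CPM in Arg1-high macrophages, and the carcinoma gate held it at 762 CPM. Lyz2, the lysozyme gene, stood at 7212 CPM, against 9725 CPM in Arg1-high macrophages. Without the 3 rule genes, the list summed to 13942 CPM in the remaining members and to 14650, 10805 and 11034 CPM in the 3 macrophage gates, so the sum does not set the gate apart from Arg1-high macrophages. Nor does Ly6c2 end at the gate: 299 of the 864 Arg1-high and 86 of the 242 Cxcl9-expressing macrophages held at least 5 Ly6c2 UMIs. With the 3 cuts on both sides, 6 of 11 neutrophil markers were at least 2-fold higher than in Arg1-high macrophages and 1 lower (median log2 ratio 1.02). Ngp, Camp, Ltf and Retnlg, which the cuts used, are on the neutrophil list, so its counts here are partly set by the cuts. Of 12 classical monocyte markers 1 was higher and 0 lower (0.33), against 1.22% and 1.71% of all genes. Over Cxcl9-expressing macrophages, 1 of 7 neutrophil and 6 of 12 classical markers were higher, against 1.32% of all genes. Over Ccl8-expressing macrophages, 2 of 7 and 8 of 12 were higher, against 7.13% of all genes.

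Shares of cells with a UMI followed the same order for Chil3 and F10. At 2000 UMIs per cell, Chil3 was found in 73.5% of the remaining members (82.7% unthinned), 56.8% of Arg1-high macrophages (69.7%) and 6.55% of the carcinoma gate (31.5%). F10 was found in 46.8% of the remaining members (64.9% unthinned), 38.4% of Arg1-high macrophages (61.5%) and 0.703% of the carcinoma gate (4.11%). Ly6c1 was found in 78.9% of the remaining members (91.1% unthinned), but also in 46.4% of the carcinoma gate (82.5%) and in 82.4% (90.3%) of the oligodendrocyte gate (median 4604 UMIs), which held 10522 CPM of it. S100a8 was found in 77.8% of the remaining members (90.4% unthinned), 70.4% of Arg1-high macrophages (93.6%) and 39.5% of the carcinoma gate (89.4%).

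**Figure D2:**
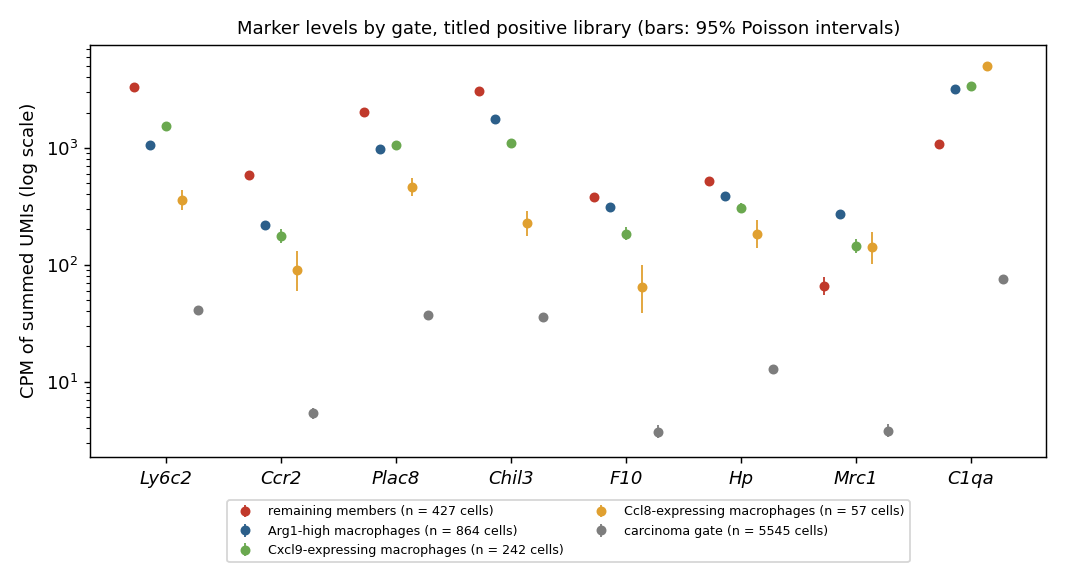
Levels of 8 genes (CPM of summed UMIs, log scale) in the remaining members, the 3 macrophage gates and the carcinoma gate of the titled positive library, with 95% Poisson intervals as bars. Chil3 stands at 3040.4 CPM in the remaining members and C1qa at 1081 CPM, below its level in each macrophage gate, while Chil3 stands at 35.6 CPM in the carcinoma gate.

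Over all genes with at least 50 UMIs in the 2 groups compared, the 477 cells differed from Arg1-high macrophages at least 2-fold upward in 242 of 8665 genes (2.79%) and downward in 169 (1.95%). Against Cxcl9-expressing macrophages the counts were 177 higher (2.66%) and 112 lower (1.68%) of 6665, and against Ccl8-expressing macrophages 476 higher (8.41%) and 234 lower (4.14%) of 5657. For the 427 remaining members, 91 genes of 8466 were higher (1.07%) and 164 lower (1.94%) than in Arg1-high macrophages. There were 84 higher (1.33%) and 117 lower (1.86%) of 6293 against Cxcl9-expressing and 359 higher (7.01%) and 167 lower (3.26%) of 5121 against Ccl8-expressing macrophages. The median log2 ratio over all genes was 0.07, 0.05 and 0.04. With the cuts made on the macrophages as well, 102 of 8382 genes were higher (1.22%) and 143 lower (1.71%) than in Arg1-high macrophages. Against Cxcl9-expressing macrophages 82 of 6228 were higher (1.32%) and 90 lower (1.45%). Against Ccl8-expressing macrophages 365 of 5119 were higher (7.13%) and 174 lower (3.40%). Genes of the cuts were set by them and give no comparison: the log2 ratio of Ngp over Arg1-high macrophages was 4.84 over all 477 cells, -1.44 for the remaining members and 0.26 (-0.18 to 0.69) with the cuts made on both sides. S100a9, which the cuts did not use but which those cells carry, had 4.61, 0.02 and 1.02 under the same choices. All comparisons below use the remaining members and the whole macrophage gates.

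Ranked by the smallest of their 3 ratios, the genes that stood highest over the macrophage gates were Ifitm6, Cxcr2, Spink2, Cytip, Ccnd3, Ffar2, Slfn4, Mmp8, Crispld2, Dgat2, Hopx and Prtn3. Spink2, a serine protease inhibitor gene of blood progenitors, stood at 277 CPM in the remaining members, against 114, 110 and 10.1 CPM in Arg1-high, Cxcl9-expressing and Ccl8-expressing macrophages. Its log2 ratios were 1.28 (1.11 to 1.46), 1.33 and 4.56. Prtn3, the gene of proteinase 3, a granule protease made in promyelocytes and monocyte progenitors, stood at 243 CPM, against 128, 85.1 and 20.1 CPM. Hopx, which encodes a small homeodomain protein, stood at 335 CPM, against 172, 148 and 13.4 CPM. Cxcr2, the receptor gene for neutrophil-attracting chemokines, stood at 70.2 CPM, with log2 ratios of 1.41, 1.65 and 3.81, and Ifitm6, of the interferon-induced transmembrane family, at 182 CPM with 1.42, 1.49 and 2.67.

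Elane, the neutrophil elastase gene, and Mpo, the myeloperoxidase gene, belong with Prtn3 to the granule genes of progenitors. Elane had 51 UMIs (26.3 CPM) in 3.75% of the remaining members and as many as 20 in 1 cell, and a log2 ratio of 3.71 (2.78 to 4.91) over Arg1-high macrophages. Mpo had 32 UMIs in 2.34% of cells. Prtn3, by contrast, had a UMI in 36.1% of the remaining members, against 4.96% of the carcinoma gate. Arg1-high, Cxcl9-expressing and Ccl8-expressing macrophages had one in 30.9%, 22.7% and 7.02%, so the gene is not particular to the members. Thinned, the shares were 25.1% in the remaining members and 18.2%, 11.6% and 1.75% in those gates.

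Complement and macrophage genes were the lower side. C1qa, C1qb and C1qc, whose products form the recognition unit of the classical complement pathway, stood at 1081, 1432 and 1296 CPM in the remaining members. In Arg1-high macrophages they stood at 3169, 4081 and 3849 CPM. The log2 ratios of C1qa were -1.55 (-1.62 to -1.49), -1.63 and -2.21 over the 3 gates. Vcam1, an adhesion molecule gene of tissue macrophages, headed the genes that were lower than in all 3 gates, at -2.63 (-2.97 to -2.31), -3.07 and -3.16. Mrc1, the mannose receptor gene, stood at 65.6 CPM, against 269, 145 and 141 CPM. Of 15 macrophage markers, 7 were at least 2-fold lower than in Arg1-high, 5 than in Cxcl9-expressing and 10 than in Ccl8-expressing macrophages, with list medians of -0.95, -0.63 and -1.24. The only marker at least 2-fold higher was Gpnmb, a lysosomal glycoprotein gene, over Cxcl9-expressing macrophages (1.33, 0.67 to 2.11).

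Genes of the lysosome and of lipid handling lay lower as well. Of those measured, 4 of 16 were at least 2-fold lower than in Arg1-high, 4 of 18 than in Cxcl9-expressing and 6 of 16 than in Ccl8-expressing macrophages (medians -0.62, -0.28 and -0.63). The lysosomal membrane gene Cd63 had ratios of -1.39, -1.43 and -1.94, the protease genes Lgmn -1.16, -0.95 and -1.48 and Ctsb -0.89, -0.80 and -1.27. Fabp5, which encodes a fatty acid binding protein, had -1.61, -1.17 and -1.70. Lgals3, the galectin-3 gene, did not share this, at 1413 CPM and ratios of 0.05, 0.42 and 0.35. Apoe stood at 13792 CPM in the remaining members, with ratios of -0.81, -0.36 and -1.08.

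Chemokine genes were lower or less than 2-fold apart. Ccl5, which attracts T cells and monocytes, stood at 2111 CPM in the remaining members, against 5291, 6013 and 4053 CPM in the 3 gates. Of the chemokine list, 5 of 15, 4 of 14 and 4 of 14 genes were at least 2-fold lower and none was 2-fold higher (medians -0.72, -0.03 and -0.77). Cxcl10, an interferon-gamma target, was at 204 CPM with a ratio of -0.04 over Arg1-high and -1.55 over Cxcl9-expressing macrophages. Ccl24, an eosinophil attractant, had -1.84 over Arg1-high and -0.02 over Cxcl9-expressing macrophages. Saa3, an acute phase gene of macrophages, stood at 2483 CPM, against 4649, 5711 and 11981 CPM.

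Inflammatory genes divided. Il1b, the interleukin-1 beta gene, stood at 2259 CPM in the remaining members, with ratios of 0.22, 0.59 and 1.74 over the 3 gates, and the decoy receptor gene Il1r2 at 1457 CPM with 0.66, 0.98 and 1.84. Il1a stood at 124 CPM, against 248 CPM in Arg1-high macrophages, and the receptor antagonist gene Il1rn had a ratio of -0.71 there. The list of 11 inflammatory genes had medians of -0.19, -0.07 and 0.47. Type I interferon response genes had a median of 0.46 over Arg1-high macrophages, with all 16 between 0.03 (Stat2) and 0.68 (Ifit3) and none 2-fold apart, and of 0.13 and 0.16 over the other gates. Interferon-gamma response genes had 0.13, -0.38 and -0.30, with Gbp5 and Cxcl10 at least 2-fold lower than in Cxcl9-expressing macrophages. Because the rule caps Cxcl9, itself an interferon-gamma target, that gate was chosen by a gene of the same response.

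Antigen presentation and energy genes showed small differences. MHC class II genes had medians of 0.35, -0.23 and 0.04 and MHC class I genes 0.20, -0.06 and 0.05, with none of the 7 and 11 genes 2-fold apart in any gate. H2-Aa and H2-K1 stood at 5667 and 4578 CPM in the remaining members. Nuclear oxidative phosphorylation genes had 0.11, 0.05 and 0.16. Glycolysis and hypoxia genes, which include Bnip3 and Vegfa, had -0.21, 0.23 and 0.56. Coagulation genes stood below Arg1-high macrophages with a median of -0.43, where F7, the coagulation factor VII gene, had -1.11, and above the other gates with 0.51 and 0.89. The haem oxygenase gene Hmox1 had -1.35, -1.01 and -0.67. S100 genes had 0.56, 0.58 and 0.80, with none of 6 at least 2-fold higher than in Arg1-high macrophages, or 2 of 6 with the cuts made on both sides. S100a8 stood at 2818 CPM, against 1629.8 CPM in Arg1-high macrophages. A few cells weigh on such sums: S100a8 and S100a9 together reached 50 UMIs in 23 of the 427 remaining members and 24 of the 864 Arg1-high macrophages. Their medians were 5 and 4 UMIs per cell. Integrin gene Itgb7 was the 1 adhesion gene of 12 at least 2-fold higher than in Arg1-high macrophages, at 1.06 (0.87 to 1.26).

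**Figure D3:**
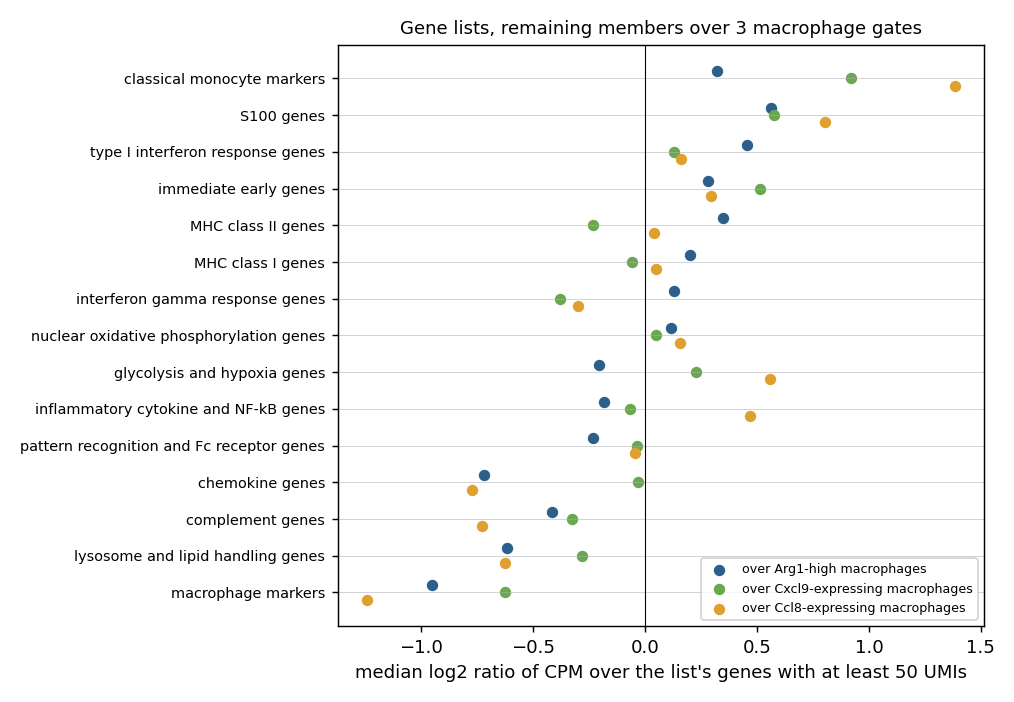
Median log2 ratio of CPM (x axis) over the genes of each list with at least 50 UMIs, remaining members over each of the 3 macrophage gates of the titled positive library. Macrophage markers lie at -0.95, -0.63 and -1.24 and classical monocyte markers without the rule genes at 0.32, 0.92 and 1.38.

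The remaining members were not uniform. Ly6c2 reached 5 UMIs in 283 of them, lay at 1 to 4 in 92 and at 0 in 52, and these were compared as cells of 1 library, with Ly6c2 itself as the choice. Between the 283 and the 52 cells, 153 of 3917 genes were at least 2-fold higher (3.91%) and 98 lower (2.5%), with a median log2 ratio over all genes of -0.03. C1qa stood at 452 CPM (415 to 491) in cells with 5 or more Ly6c2 UMIs and at 3018 CPM (2809 to 3239) in cells with 0, a log2 ratio of -2.74. Cells with 1 to 4 held 1759 CPM. The cells without Ly6c2 were a mixture: 17 of the 52 held 0 to 6 UMIs of C1qa, C1qb and C1qc together, none held 7 to 17, and 35 held 18 or more. Of the 283 cells, 231 held 0 to 6 and 32 held 18 or more. C1qb and C1qc had -2.29 and -2.69, and the chemokine gene Ccl12 had -2.94. The cells without Ly6c2 were admitted by Plac8 and Ccr2, which stood there at 1392 and 375 CPM.

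On the higher side, Ly6c1 stood at 2322 CPM in cells with 5 or more Ly6c2 UMIs and at 156 CPM in cells with 0, and its relative Ly6i at 896 and 141 CPM. Ly6c1 may share reads with Ly6c2 for the reason given with the sequences. Chil3 stood at 4027.5 and 1028 CPM, a ratio of 1.97 (1.79 to 2.15), and F10 had 1.73. Slfn4, a Schlafen gene of the interferon response, had 2.83, Hopx 2.51, Prtn3 2.45, Thbs1, the thrombospondin-1 gene, 2.29 and S100a8 2.17. S100a8 ranged to 348 UMIs in 1 cell. Il1b differed little, at 2322 and 1787 CPM. Ifitm1 was lower with Ly6c2, at 539 and 1939 CPM, as were the metalloelastase gene Mmp12 (-2.05) and the hypoxia-induced lipid droplet gene Hilpda (-1.79). Of 13 macrophage markers 4 were at least 2-fold lower and none higher (median -0.52), and of 12 classical monocyte markers 5 were higher and none lower (median 0.85). Proliferation genes had a median of -0.75, with 2 of 8 at least 2-fold lower.

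Markers outside the naming rule were looked up after their values had been seen. Gm5960 and I830127L07Rik are pseudogenes of the same cluster on chromosome 15, and whether they were given reads of Ly6c2 was not tested. They followed Ly6c2 most closely, at 559 and 3.91 CPM and at 761 and 15.6 CPM in cells with 5 or more and 0 UMIs. The dendritic cell genes Mgl2 and Ccl17 and the platelet factor gene Pf4 went the other way. Mgl2 had 1 UMI in the 283 cells and stood at 86.0 CPM in the 52, and Pf4 likewise had 1 UMI in the 283 cells and stood at 113 CPM in the 52, where 1 cell held 18.

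**Figure D4:**
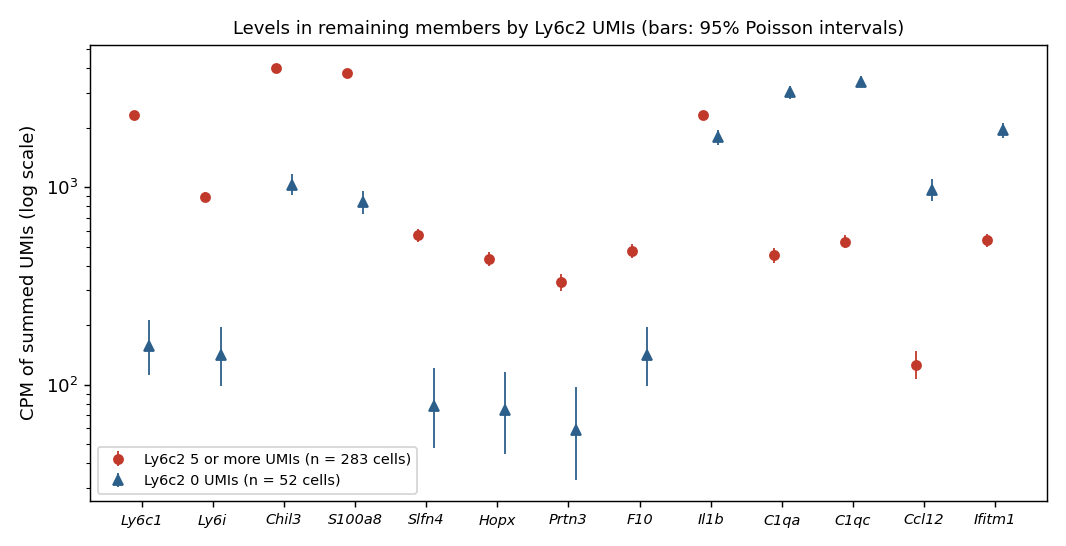
Levels of 13 genes (CPM of summed UMIs, log scale, bars 95% Poisson intervals) in remaining members with 5 or more Ly6c2 UMIs (circles, 283 cells) and with 0 (triangles, 52 cells). Ly6c1 and Chil3 lie higher in the first, while C1qa lies at 452 and 3018 CPM.

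The same rule and the same cuts left 84 remaining members in the titled control library (median 4817.5 UMIs). This comparison was added after the data had been seen and sets 1 library beside 1 library. Of 5501 genes, 639 were at least 2-fold higher in the titled positive library (11.6%) and 539 lower (9.8%), with a median log2 ratio over all genes of 0.00. Markers of other cells differed as well. The keratin gene Krt8 stood at 247 CPM in remaining members of the titled positive library and at 2.15 CPM in those of the titled control library. The rule caps Krt8 with Epcam and Krt18 at the same 5 UMIs in both, so its level is described only. The 6 oligodendrocyte markers, which the cuts limit in both, summed to 456 and 2890.3 CPM. The 5 oligodendrocyte markers measured were all at least 2-fold lower (median -1.90) and the 4 carcinoma markers at least 2-fold higher (4.41), and both medians turned, to 4.25 and -2.04, with 15% of RNA subtracted as free RNA. Of the 15 genes with the lowest ratios, several are astrocyte genes, such as Slc1a3 and Slc1a2, glutamate transporters, at -7.40 and -6.74. Their part in the other values was not tested.

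Monocyte and dendritic cell markers that the rule did not use differed between the members of the libraries. Chil3 stood at 3040.4 CPM in the titled positive library and 86.0 CPM in the titled control library, a ratio of 5.13 (4.70 to 5.63), and reached 5 UMIs in 254 of 427 cells (59.5%) and 3 of 84 (3.57%). F10 had a ratio of 3.50. Treml4, Ace and Adgre4, the non-classical monocyte genes, together reached 3 UMIs in 0 of 427 cells, which allows up to 0.860%, and in 29 of 84 (34.5%, 24.5 to 45.7%). Only 4 of the 84 cells met this with Ly6c2 at 0 UMIs, so most of the 29 carried Ly6c2 counts and are not named non-classical monocytes here. Cd209a and Mgl2, lectin genes of type 2 and monocyte-derived dendritic cells, together reached 5 UMIs in 5 of 427 cells (1.17%) and 15 of 84 (17.9%). Cd209a stood at 3.61 and 1026 CPM, Ear2, a ribonuclease gene of non-classical monocytes, at 11.4 and 464.5 CPM. The non-classical list had 6 of 7 genes at least 2-fold lower (median -4.03). The genes of the rule, as a description of the choice, stood at 3305 and 2473 CPM for Ly6c2, 2043 and 2325 CPM for Plac8 and 587 and 1222 CPM for Ccr2.

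Of 11 inflammatory cytokine and NF-kB genes, 7 were at least 2-fold higher in the titled positive library and 1 lower (median 2.48). Among the genes with the highest ratios of all, Saa3 had 4809 UMIs (2483 CPM) in its 427 cells and 2 UMIs (4.30 CPM) in the 84, a log2 ratio of 8.85 (7.32 to 12.22), and S100a8 5458 and 8 UMIs, a ratio of 7.27. Il1r2 had 7.23 and Ccl5 6.55, and Ifitm1 stood at 894 and 12.9 CPM. Inhba, an activin subunit gene, Cxcl11 and Nos2, the inducible nitric oxide synthase gene, were at 0 UMIs in the 84 cells and at least 19.1-fold, 17.4-fold and 10.1-fold higher, taken against 3 counts over that group. Interferon-gamma response genes had 12 of 13 at least 2-fold higher (median 2.19), with Gbp2 at 564 and 23.7 CPM. MHC class I genes had 6 of 11 higher (1.21) and MHC class II genes none of 7 (-0.77), with H2-Aa at 5667 and 11030.1 CPM. Type I interferon response genes had 4 of 15 higher and 1 lower (0.53). Glycolysis and hypoxia genes had 10 of 13 higher (1.48), proliferation genes 9 of 11 (1.93) and chemokine genes 10 of 13 (1.57). Lyz2 stood at 7212 and 19419 CPM. For S100a8, other cells of each library also differed: the oligodendrocyte gates held 539 and 20.1 CPM.

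A difference in the mixture of cells and a difference in level within 1 kind of cell cannot be told apart from these sums. In cells with 5 or more Ly6c2 UMIs in both libraries, 283 and 41 cells, the ratio of Chil3 was 4.52 and that of Saa3 7.67, of Gbp2 3.73 and of Ear2 -7.25.

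**Figure D5:**
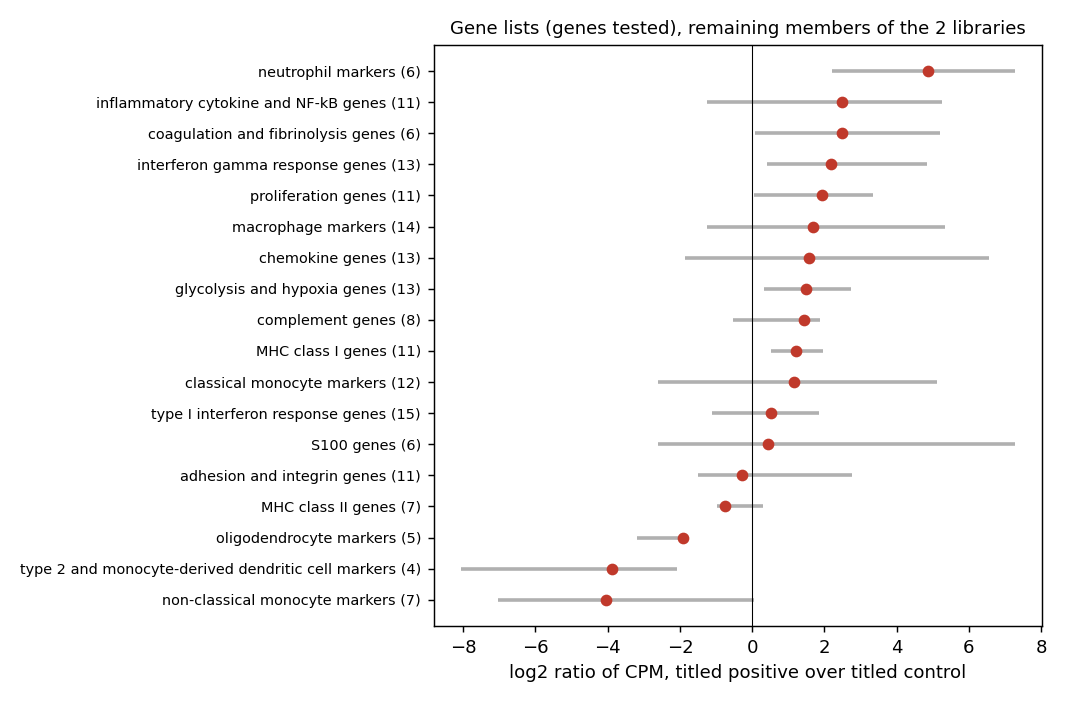
Log2 ratios of CPM in remaining members of the titled positive over the titled control library, as the median (point) and the lowest to highest gene (bar) of each list, with the number of genes measured in parentheses. Interferon gamma response genes have a median of 2.19 and non-classical monocyte markers one of -4.03.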

How the data were processed

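The authors deposited, per library, a table of raw counts (UMIs per gene and cell barcode), made with Cell Ranger and GRCm38, per the submitters' processing notes. The annotation release, the cell calling and the strand setting were not given in the sources used here. Of 29217 gene IDs, 29170 matched GENCODE M21. Raw counts were summed per gate and divided by the gate's total (CPM). Log2 ratios used a pseudocount of 0.5 counts, genes with at least 50 UMIs over both groups and a 2-fold threshold, with exact Poisson, Clopper-Pearson or conditional binomial intervals. With 1 library per group no test was run. Shares were thinned to 2000 UMIs per cell. Barcodes of the titled positive library held at least 3160 UMIs (median 7384) and those of the titled control library at least 2270 (median 4230). Doublets were kept, and Scrublet calls (336 and 666 barcodes) were removed as an alternative.

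The members and gene lists were chosen with earlier results of these data known. The comparisons with the macrophage gates were planned on all 477 cells. The 3 sets left out to give the remaining members, the same cuts on the macrophage gates as an alternative, and the comparison between libraries were added after the data had been seen. Genes named were the label's markers, in each list the 2 highest, the 2 lowest and the most abundant against Arg1-high macrophages, the 12 genes at each end over the 3 gates and the 10 at each end between Ly6c2 levels. Others named were chosen after their values were seen. Near-identical copies and pseudogenes are uncertain, as are overlapping genes. The scripts were tested on simulated data. Tools were Python 3.11.15, NumPy 2.4.6, SciPy 1.17.1, pandas 2.3.3 and scanpy 1.11.5.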

Additional observations from a re-analysis of the deposited data

How the results depend on the processing

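No paired analysis was possible because each group has 1 library. The number of cells, 477, fell to 262 with at most 2 carcinoma UMIs and to 127 with cells carrying 3 or more UMIs of other immune types left out. The other immune lists include Ccl5 as an NK marker, which held 2111 of that list's 2235 CPM in the remaining members. Ccl5 was higher still in all 3 macrophage gates, so the fall to 127 does not count cells of other immune types. Counts of genes at least 2-fold apart depended on the gene minimum, which also changes how many genes are compared. At 20 UMIs there were 551 higher and 299 lower than in Arg1-high, 413 and 288 than in Cxcl9-expressing, and 921 and 632 than in Ccl8-expressing macrophages, and 1080 and 1198 between libraries. At 200 UMIs there were 67 and 68, 48 and 37, 123 and 58, and 251 and 105, in the same order. With 15% of RNA subtracted as free RNA there were 558 and 301, and 347 and 215, over the Arg1-high and Cxcl9-expressing gates, and 390 lower than in the Ccl8-expressing gate. With other immune types left out, 430 were lower than in Arg1-high, 117 higher than in Cxcl9-expressing, and 159 higher and 114 lower than in Ccl8-expressing macrophages. Without the granule-rich, cytotoxic and oligodendrocyte-rich cells, 91 and 84 were higher than in the Arg1-high and Cxcl9-expressing gates, and 102 and 82 with the same cells also left out of the macrophage gates.

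Directions that turned belonged mostly to markers of other cells. Leaving cells out by such markers lowers those markers by construction, and in the settings given first it was done on the members only. Over the Arg1-high, Cxcl9-expressing and Ccl8-expressing gates, the NK marker median turned to -1.14, -1.49 and -2.36 with other immune types left out and to -0.64, -0.55 and -1.67 without the 3 sets. The T cell median over Arg1-high macrophages turned to -2.79 and -0.036 under these settings. Without the 3 sets, the oligodendrocyte median over Arg1-high macrophages turned to -0.67, Camp to -1.96, and Ngp to -1.44, -0.17 and -0.017 over the 3 gates. With the 3 sets left out on both sides, the NK median over the Cxcl9-expressing and Ccl8-expressing gates was -0.13 and -0.35 and Ngp -0.21 and -0.039, while over Arg1-high macrophages these kept their sign. Between libraries, 15% free RNA turned the microglia, carcinoma and oligodendrocyte medians to 1.86, -2.04 and 4.25 and Ngp to -2.25. Removing doublets turned the endothelial median to 0.29, keeping all members turned Ifitm6 to 0.24, and keeping only cells with 5 or more Ly6c2 UMIs turned Ccl17 to 0.98. The cause of the changes between libraries was not tested. Among comparisons with the macrophage gates, no log2 ratio or list median of at least 1 in size changed sign with 5% free RNA subtracted, mean per-cell CPM, a minimum of 8 UMIs or a pseudocount of 5 counts, none of which was run between libraries. None did in either comparison with the median ratio set to 0.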
